A study of Homo sapiens with 12 samples.

Results

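The genes described here are those on human chromosome 19 whose symbol is ZNF followed by a number, and at most 1 further letter, and whose normalized read count averaged at least 10 over 12 libraries. Of 2027 genes listed on this chromosome, 247 carried such a symbol, and 186 of these passed the mean of 10. They are 186 of 15376 genes that passed it in the whole table of 36601, and are called the chr19 ZNF genes from here on. The other 61 fell below the mean of 10, and 21 of them had no read in any library. The cells were KP4, an established human pancreatic cancer cell line, cultured for 24 h in 1 of 4 treatments with 3 libraries each, namely DMSO as vehicle, metformin at 10 mM (Met), FK866 at 5 nM (FK), or metformin and FK866 together at those doses (Met+FK). Metformin inhibits complex I, the NADH dehydrogenase of mitochondria, and FK866 inhibits NAMPT, an enzyme that salvages nicotinamide into NAD. RNA was depleted of ribosomal RNA before sequencing, so the counts cover polyadenylated and other transcripts alike. The labels do not say whether libraries of a treatment came from separate cultures, so the p-values measure the spread between these libraries, which may be technical.

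Most ZNF proteins are transcription factors built from repeated C2H2 zinc fingers, each of which holds a zinc ion and contacts a few bases of DNA. In the large KRAB subfamily, a KRAB box ahead of the fingers binds TRIM28, which brings in the histone methyltransferase SETDB1 and HP1 proteins, so that the bound DNA is packed into silent chromatin. Many KRAB proteins bind and silence retrotransposons. The subfamily grew by local duplication, and chromosome 19 holds its largest clusters, in which neighbouring genes are often close relatives.

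A KRAB box pattern was found in a coding isoform of 156 of the 186 chr19 ZNF genes and was not found in 30, although a pattern search can miss a divergent box. A SCAN box, which pairs such proteins with each other, was found in 3, namely ZNF274, ZNF444 and ZNF446. The number of fingers in the main isoform ranged from 1 to 31, with a median of 12. The transcripts were poor in G and C. Their GC content, taken from the main transcript of GENCODE, had a median of 42.6% and ran from 33.2% in ZNF254 to 70.9% in ZNF865, against a median of 48.5% over all genes tested. The 156 genes with the KRAB pattern had a median of 42.2% and the 30 without it a median of 62.6%, so the pattern and the base composition of the transcript went together. Genes were put in position groups, with a gap of over 1 Mb starting a new group, and this gave 16 groups. The largest held 47 genes between 55476616 and 58481230 (ZNF628 to ZNF446), 30 between 51804815 and 53580269 (ZNF577 to ZNF331), 24 between 43525496 and 45076587, 20 between 11483426 and 12640098, and 18 between 36182059 and 37817300 (ZNF565 to ZNF573), in coordinates of hg38.

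The chr19 ZNF genes were mostly of low abundance. Their mean normalized count had a median of 292, against 724 over all genes tested. Together they took between 0.198% and 0.276% of the counted read pairs of a library. The highest means belonged to ZNF121 (3732), ZNF562 (3589.5), ZNF317 (3063), ZNF507 (2317) and ZNF146 (2290.5). Per kilobase of transcript the order was different, with ZNF428 at 757 normalized counts per kilobase, ZNF317 at 755, ZNF787 at 699, ZNF146 at 684 and ZNF121 at 534. Just inside the limit lay ZNF90 with a mean of 12.1 and ZNF491 with 13.8, and just outside it ZNF568 with 5.69 and ZNF66 with 4.72. The spans of 93 of the 186 genes overlap another gene of the table, 71 of them on the opposite strand. Since the strand setting of the counting is not given in the sources used here, and since near relatives share sequence, values of single genes in these clusters are uncertain to that extent.

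Promoters of 4 genes are given because these genes were called in both metformin comparisons described further on. RefSeq promoters (GRCh38.p14, 250 bases before to 50 after the start) were matched by symbol for 167 of the 186 genes. They held a median of 21.0 CG dinucleotides per 300 bases, against 14.0 over all 27305 promoters, and their median GC content was 60.7% against 58.3%. The promoters were thus GC-rich although the transcripts are AT-rich. The letters CCGGAAG, the core that ETS factors bind, were present on either strand in 74 of 167 (44.3%), against 10.7% of all promoters. All promoters are not a matched set, as they include those of genes below the mean of 10 and hold fewer CG dinucleotides. The ETS letters themselves contain CG, and near relatives in the clusters may share a match. Among the 47 genes called higher in Met against DMSO, all with a promoter in the table, the share was 51.1%, and among those called higher in Met+FK against FK it was 5 of 14 (35.7%). The other letters searched were rarer in the 167 promoters, each on both strands. AAGATGG (YY1) was in 15 (8.98%, all promoters 6.06%), ACTACAA (ZNF143) in 10 (5.99%, all 2.95%), TGACGTCA (CREB and ATF, the same on both strands) in 7 (4.19%, all 1.98%), GCGCATGC (NRF1) in 6 (3.59%, all 3.27%) and TGATGNAA (the C/EBP and ATF element) in 2 (1.2%, all 3.67%). The last letters AAG of the ETS core are also the first of the YY1 core, and no promoter of these genes had both in that overlap. A match describes the letters and does not show that a factor binds there.

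The 3 genes with the largest change in Met vs DMSO among those called higher in both metformin comparisons with and without the GC trend, and the gene called lower in both, have the following promoters on the plus strand, 5′ to 3′, with matches to the letters above in capitals. Those of ZNF181, ZNF528 and ZNF530 hold the ETS core, at 1, 2 and 1 places, and that of ZNF844 holds none of the 6 motifs. The windows are chr19:12064481-12064780, chr19:34733993-34734292, chr19:52397599-52397898 and chr19:57599635-57599934 of GRCh38.p14.
ZNF844: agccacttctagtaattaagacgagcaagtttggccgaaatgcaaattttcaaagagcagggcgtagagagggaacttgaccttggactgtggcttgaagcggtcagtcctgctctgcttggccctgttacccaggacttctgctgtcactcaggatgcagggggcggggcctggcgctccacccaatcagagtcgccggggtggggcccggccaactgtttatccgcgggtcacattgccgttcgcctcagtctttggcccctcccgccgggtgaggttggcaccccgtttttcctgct
ZNF181: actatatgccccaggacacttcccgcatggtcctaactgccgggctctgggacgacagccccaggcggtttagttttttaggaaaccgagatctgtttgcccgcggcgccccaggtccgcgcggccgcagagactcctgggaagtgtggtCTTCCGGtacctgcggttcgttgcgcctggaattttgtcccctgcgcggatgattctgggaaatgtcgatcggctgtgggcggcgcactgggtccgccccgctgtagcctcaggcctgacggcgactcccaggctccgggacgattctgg
ZNF528: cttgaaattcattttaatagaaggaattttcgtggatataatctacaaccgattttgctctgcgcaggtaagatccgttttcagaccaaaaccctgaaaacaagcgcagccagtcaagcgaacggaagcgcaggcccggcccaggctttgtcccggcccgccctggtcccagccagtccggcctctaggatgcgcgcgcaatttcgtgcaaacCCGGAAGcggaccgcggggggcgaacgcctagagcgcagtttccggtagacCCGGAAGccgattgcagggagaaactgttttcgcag
ZNF530: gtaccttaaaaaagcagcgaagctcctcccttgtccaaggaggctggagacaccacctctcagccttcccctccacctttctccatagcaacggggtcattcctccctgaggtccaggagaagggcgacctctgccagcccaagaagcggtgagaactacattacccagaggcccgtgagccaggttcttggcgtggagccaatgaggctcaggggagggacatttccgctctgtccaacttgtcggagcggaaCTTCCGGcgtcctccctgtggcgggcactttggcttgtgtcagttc

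Each library held between 30667735 and 41052203 read pairs. The libraries differed in how their values moved with GC content, which bears on every comparison of AT-rich transcripts. The slope of a library, over all genes tested, is the change in log2(normalized count + 1), relative to each gene's mean, per 10 percentage points of GC content. It was 0.20, 0.04 and 0.18 in the DMSO libraries 1 to 3, -0.08, -0.14 and 0.08 in the Met libraries, 0.0027, -0.25 and -0.02 in the FK libraries and -0.02, -0.05 and 0.06 in the Met+FK libraries. All FK slopes lay below all DMSO slopes (difference in means -0.23, two-sided exact permutation p = 0.1, which with 3 libraries a treatment is as low as it can go), while those of Met overlapped those of DMSO (difference -0.19, two-sided exact permutation p = 0.2). FK library 2, Met library 3 and DMSO library 2 stood apart from the other 2 of their treatment. Each comparison is therefore given as deposited and also after a smooth trend on GC content was removed from each library. Of the ductal carcinoma markers, KRT8 (mean 2728) and KRT18 (13174) lay above the median of 724 over all genes tested. KRT7 (248), KRT19 (33.7) and CDH1 (47.4) lay below it, and EPCAM (8.93) lay under 10. The mesenchymal markers VIM (103576), CDH2 (3209) and ZEB1 (905) all lay above that median. Of markers of other cells, the leukocyte gene PTPRC reached 196, PECAM1 7.10, ALB and PRSS1 lay under 1, and CPA1 and INS were at 0.

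The level of the chr19 ZNF genes as a group was lowest in the DMSO libraries. The median over the 186 genes of the log2 deviation from each gene's mean was -0.24, -0.17 and -0.26 in DMSO, 0.18, 0.18 and -0.02 in Met, -0.06, 0.18 and -0.05 in FK and 0.12, 0.15 and 0.03 in Met+FK. Every treated library lay above every DMSO library. Among treated libraries, those with the lower medians were Met 3, FK 1 and FK 3, which also had the higher GC slopes of their treatments, and FK 2, with the steepest negative slope, had the highest median of the FK libraries. After the GC trend was removed, the medians were -0.07, -0.11 and -0.16 in DMSO, 0.12, 0.06 and -0.0013 in Met, -0.04, 0.01 and -0.07 in FK and 0.11, 0.10 and 0.06 in Met+FK. The Met and Met+FK libraries still lay above all 3 DMSO libraries, whereas FK 3 fell within the range of the DMSO libraries.

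**Figure D1:**
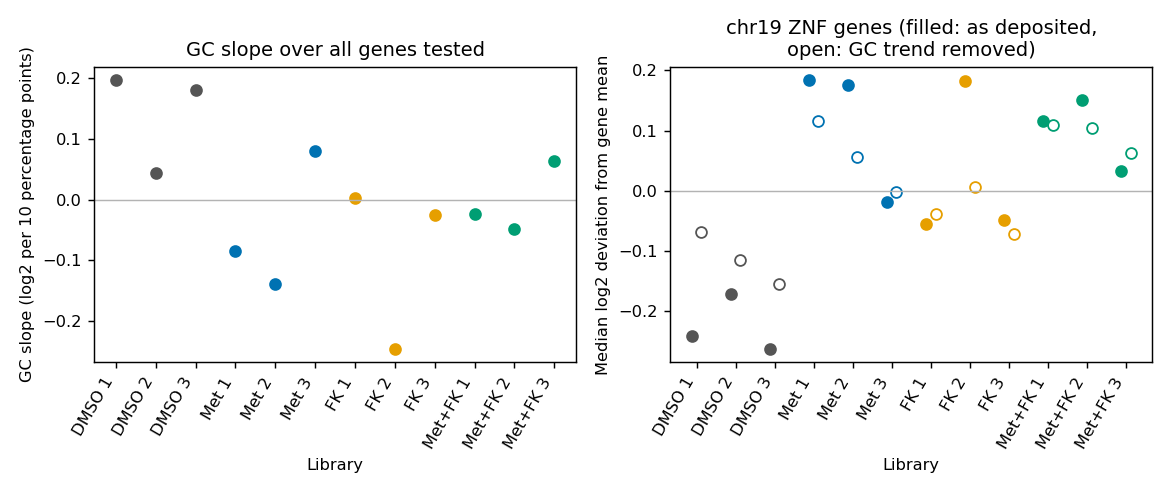
GC slope of each library over all genes tested (left, log2 units per 10 percentage points of GC content) and the median log2 deviation of the 186 chr19 ZNF genes in each library (right, filled points as deposited, open points after removal of the GC trend). DMSO libraries have the lowest filled medians, from -0.26 to -0.17, and the open points of the FK libraries lie between -0.07 and 0.01.

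Metformin alone was compared with DMSO. With metformin, 47 of the 186 chr19 ZNF genes were higher and 1 was lower (limma on log2(normalized count + 1), Benjamini-Hochberg adjusted p under 0.05 and a fold change over 1.5). This is 25.3% higher and 0.538% lower, beside 12.8% and 10.2% of all genes tested. The median log2 fold change of the 186 was 0.34, against 0.01 over all genes, and 143 of the 186 values were positive. At the adjusted p-value alone, 90 were higher and 13 lower (48.4% and 6.99%), beside 24.9% and 25.9% of all genes. The Met libraries lay above or below all DMSO libraries without overlap in 43 of the 47 called higher and in the 1 called lower. Overlap was not counted over all genes tested. Without DMSO library 2, 57 were higher and 3 lower, and without Met library 3, 59 and 3. The lower count was 2 without DMSO library 3, Met library 1 or Met library 2. Counts over all genes with a library left out are not given here. Of the 47, 24 passed both thresholds whichever 1 of the 6 libraries was left out. With libraries scaled to the same total, 64 were higher and 1 lower, beside 2835 higher and 1025 lower of all genes tested, whose median then shifted from 0.01 to 0.13.

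The largest changes with non-overlapping libraries were those of ZNF844, ZNF404, ZNF181, ZNF528, ZNF331 and ZNF846. ZNF846 (chr19:9751992-9793180, minus strand) counted 95.8, 115 and 96.2 in DMSO and 222, 237 and 211 in Met. All Met libraries were above all DMSO libraries, and the log2 fold change was 1.12 ± 0.13 (SE, n = 3 per treatment, limma adjusted p = 6.10e-06). ZNF331, an imprinted gene (chr19:53519526-53580269, plus strand), counted 28.9, 29.6 and 22.5 in DMSO and 62.7, 65.2 and 52.8 in Met, a change of 1.13 ± 0.18 (limma adjusted p = 1.40e-04). ZNF181 (chr19:34734154-34745378, plus strand), whose promoter is given above, went from 126, 190.2 and 129 to 353, 403 and 294, with DMSO library 2 highest within DMSO and Met library 2 highest within Met. Its log2 fold change was 1.25 ± 0.24 (limma adjusted p = 5.15e-04). ZNF528 (chr19:52397848-52418412, plus strand) counted 42.7, 44.3 and 35.8 in DMSO and 97.2, 116 and 68.0 in Met (1.15 ± 0.23, limma adjusted p = 6.96e-04). Met library 3 was the lowest of the Met libraries for both genes and still above every DMSO library.

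ZNF404 (chr19:43872364-43901385, minus strand), with a transcript GC content of 36.0%, went from 27.7, 58.1 and 28.6 in DMSO to 101, 139.8 and 96.4 in Met (log2 fold change 1.60 ± 0.30, 1.29 with the GC trend removed). ZNF844 was barely detected in DMSO, at 9.23, 1.97 and 5.12 normalized counts, and counted 18.8, 21.7 and 16.2 in Met. Its fitted change of 1.79 ± 0.40 on the log2(value + 1) scale understates ratios at such counts. The gene that fell was ZNF530 (chr19:57599884-57612722, plus strand), at 589.7, 505 and 582 in DMSO and 356, 308 and 324 in Met. Every Met library was below every DMSO library, and the log2 fold change was -0.76 ± 0.13 (limma adjusted p = 2.21e-04). All 7 genes kept an adjusted p-value under 0.05 and their call when any 1 of the 6 libraries was left out, and all kept their call with the GC trend removed, where the log2 fold changes of the 6 that rose lay between 0.95 and 1.64.

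Among the chr19 ZNF genes, the change in Met against DMSO went with GC content. Across the 186 genes, Pearson's r between GC content and the log2 fold change was -0.51 (Spearman's rho -0.50), as a description of genes that share the same libraries. The corresponding r in Met+FK against FK was 0.10 (rho 0.16), of the other sign. Of 78 genes with a GC content under 42%, 33 were called higher and 0 lower, with a median of 0.52. Of 79 from 42% to under 50%, 14 were higher and 1 lower, with a median of 0.32. Of 29 at 50% or more, 0 were called in either direction, and the median was -0.19. Of all genes tested in the same 3 ranges, 20.6%, 13.7% and 7.87% were called higher and 3.46%, 7.55% and 15.6% lower, beside 42.3%, 17.7% and 0% higher of the chr19 ZNF genes. All genes had medians of 0.26, 0.07 and -0.18. By median, the chr19 ZNF genes thus lay above all genes in the lower 2 ranges and near them in the highest. There, 0% of them and 15.6% of all genes were called lower. Median GC content also differed there, at 62.6% for the chr19 ZNF genes and 57.4% for all genes. In narrower bins, the chr19 ZNF median was higher from 50% to 55% (0.06 against -0.12) and from 60% to 65% (0.08 against -0.21). It was also higher from 65% to 70% (-0.14 against -0.21). It was lower from 55% to 60% (-0.37 against -0.21) and from 70% to 75% (-0.18 against -0.12). These bins held 4 to 8 chr19 ZNF genes each.

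Once the GC trend was removed, 19 chr19 ZNF genes were higher with metformin and 2 lower, beside 10.2% and 9.93% of all genes tested in this way. The share called higher (10.2%) was that of all genes, and the share called lower (1.08%) was below theirs. All 19 were among the 47. The median log2 fold change became 0.17, against -0.03 over all genes, and 133 of 186 values were positive. At the adjusted p-value alone, 67 were higher and 18 lower, beside 26.0% and 31.6% of all genes. By GC content the medians were then 0.25, 0.17 and -0.03 in the 3 ranges.

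Calls were also counted by the KRAB pattern, with no test between the sets. Of the 156 genes with it, 46 were higher and 1 lower in Met against DMSO, with a median of 0.39. Of the 30 without it, 1 was higher, ZNF146, and the median was -0.03. The order was the reverse in Met+FK against FK, with 11 of 156 higher (7.05%, median 0.08) with the pattern and 4 of 30 (13.3%, median 0.14) without it. The pattern and composition can be told apart only in part, since 21 of the 30 and 8 of the 156 had a GC content of 50% or more. Within that range, the median was -0.22 with the pattern and -0.18 without it, and under 42% it was 0.52 in 72 genes and 0.55 in 6. After removal of the trend, the medians in Met against DMSO were 0.20 and 0.07. Genes with over 12 fingers (n = 88) had a median of 0.43 and those with 12 or fewer (n = 98) 0.26. The 93 genes that overlap no other gene had 23 higher, 1 lower and a median of 0.32, close to the 24, 0 and 0.38 of those that do.

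**Figure D2:**
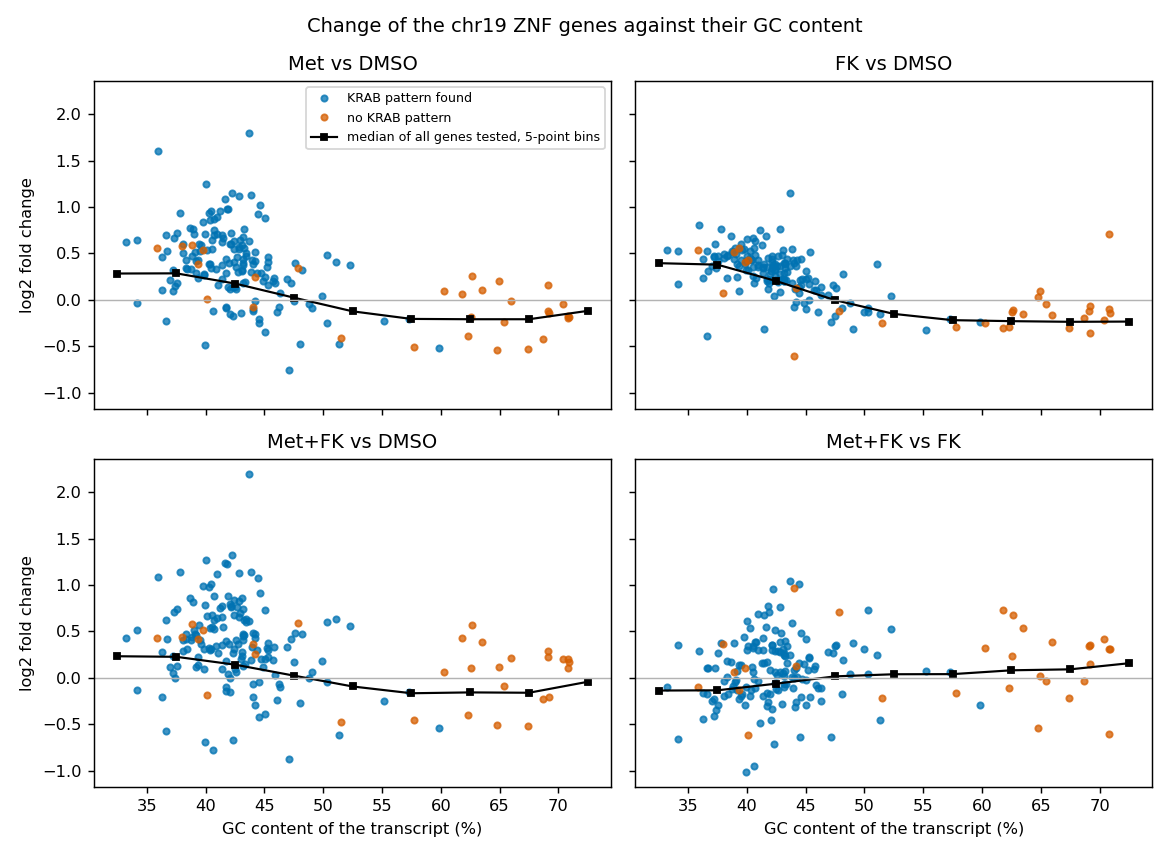
Log2 fold change of each chr19 ZNF gene (points, blue with and orange without the KRAB pattern) against the GC content of its transcript (%), in 4 comparisons. The black line is the median of all genes tested in bins of 5 percentage points, and from 35% to 40% and 40% to 45% the points have medians of 0.49 and 0.44 beside 0.28 and 0.17 for all genes in Met vs DMSO, and 0.47 and 0.35 beside 0.38 and 0.20 in FK vs DMSO.

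Along the chromosome, the genes called higher with metformin were spread over most position groups. The 18 genes from ZNF565 to ZNF573 all had positive log2 fold changes, 9 of them were called higher, and their median was 0.60. In the group of 30 from ZNF577 to ZNF331, in which every gene had the KRAB pattern, 29 values were positive, 10 were called higher and the median was 0.46. The 47 genes nearest the end of the long arm had 3 called higher, 1 lower and a median of 0.06. Their median GC content was 46.3%, against 39.4% and 40.8% in the other 2 groups. The shares called higher in the 3 groups, in the order given, were 50%, 33.3% and 6.38%, beside 12.8% of all genes tested. Of all genes with a GC content under 42% it was 20.6%, and from 42% to under 50% it was 13.7%. The medians of the 3 groups after removal of the GC trend were 0.36, 0.27 and 0.05, in the same order. Their medians in Met+FK against FK, as deposited, were 0.17, 0.10 and 0.15.

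**Figure D3:**
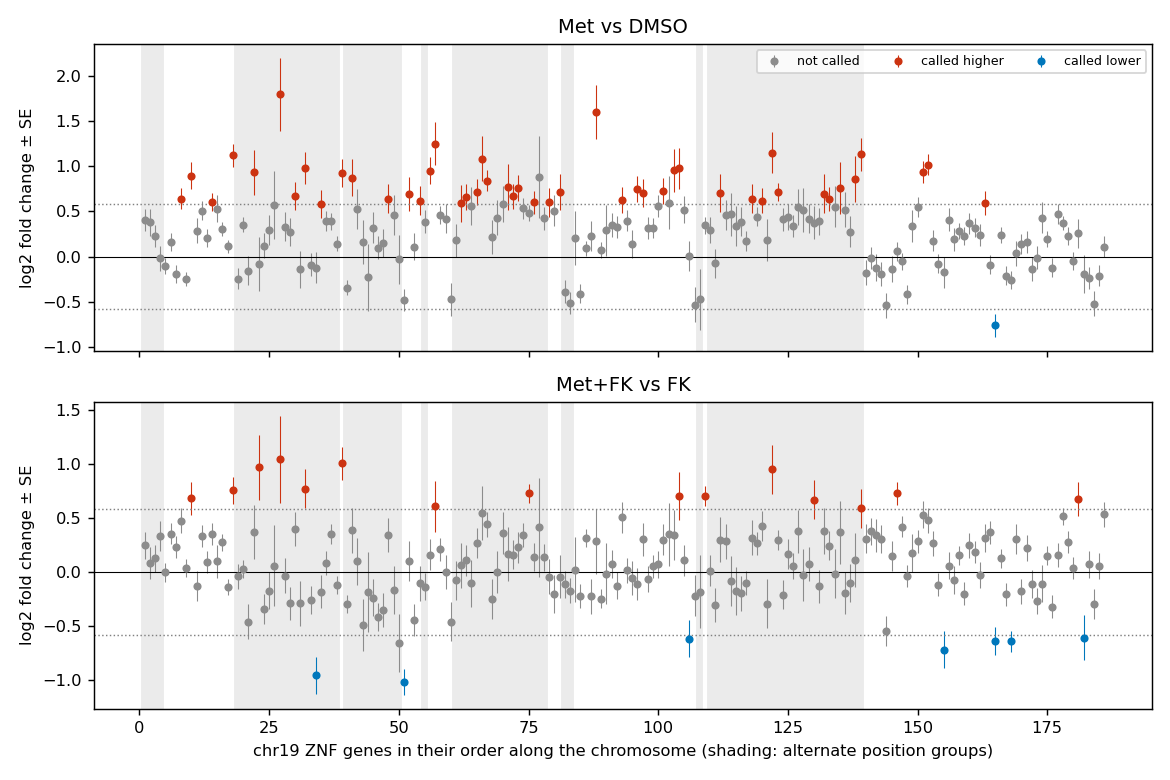
Log2 fold change with its SE for the 186 chr19 ZNF genes in their order along the chromosome, in Met vs DMSO (top) and Met+FK vs FK (bottom). Red and blue points were called higher (47 and 15) and lower (1 and 7), dotted lines mark a fold change of 1.5, and shading marks alternate position groups.

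Metformin added to FK866-treated cells was compared with FK866 alone, and these 6 libraries share none with the comparison above. In Met+FK against FK, 15 chr19 ZNF genes were higher and 7 lower, beside 9.27% and 9.29% of all genes tested, and the shares were 8.06% and 3.76%. With libraries scaled to the same total, 17 were higher and 3 lower, beside 1707 and 1175 of all genes. Without FK library 3, 10 were higher and 4 lower, and the counts over all genes without it are not given here. When each of the 6 libraries was left out in turn, 7 of the 15 and 3 of the 7 passed both thresholds every time. The median log2 fold change was 0.08. Removal of the GC trend gave 16 higher and 7 lower, beside 9.27% and 9.23%, and the median was 0.12. At the adjusted p-value alone, 65 were then higher and 20 lower, beside 25.4% and 28.2% of all genes. In this pair of treatments the difference in GC slope was small and of the other sign (0.09 per 10 percentage points, exact permutation p = 0.5).

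Of the 47 genes called higher in Met against DMSO, 42 had a positive log2 fold change in Met+FK against FK, with a median of 0.35, and 9 were called higher there too. These 9 are 9 of the 15 called higher in that comparison. They were ZNF844, ZNF181, ZNF528, ZNF331, ZNF846, ZNF442, ZNF285, ZNF333 and ZNF699, and all 9 were also called in both comparisons with the GC trend removed. ZNF285 and ZNF699 are named after their values were seen, because they belong to this set. The libraries of Met+FK and FK overlapped for ZNF181, at 184, 373 and 177 in FK and 331, 378 and 347 in Met+FK, and the call held only without FK library 2. The calls of ZNF331 (without FK library 1 or 3 or Met+FK library 2 or 3) and ZNF285 (without FK library 1 or 3 or Met+FK library 1 or 2) were lost too, with limma adjusted p of at most 0.0717. Across the 186 genes, Pearson's r between both sets of log2 fold changes was 0.60 as deposited and 0.80 with the GC trend removed, as a description. With the trend removed, 11 genes were called higher and 2 lower in both, of 19 and 16 higher and of 2 and 7 lower. Shared signs, shared calls and r were not worked out over all genes tested. They therefore do not show that such agreement is particular to the chr19 ZNF genes.

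**Figure D4:**
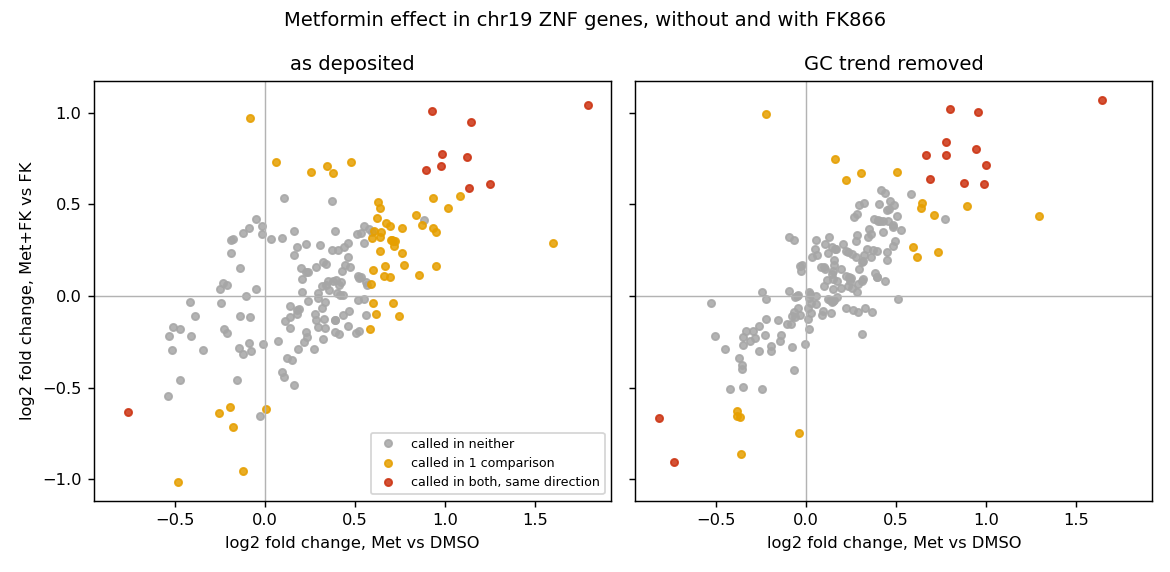
Log2 fold changes of the 186 chr19 ZNF genes in Met vs DMSO (horizontal) and Met+FK vs FK (vertical), which share no library, as deposited (left) and with the GC trend removed (right). Red points were called in the same direction in both comparisons, 9 higher and 1 lower on the left, 11 higher and 2 lower on the right.

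ZNF333 (chr19:14689800-14733746, plus strand), the only gene of its position group, counted 164, 172 and 189 in DMSO and 217, 208 and 137 in FK, against 337, 295 and 375 in Met and 375, 354 and 381 in Met+FK. Both metformin treatments lay above both treatments without it. The log2 fold change was 0.93 ± 0.15 in Met against DMSO and 1.01 ± 0.15 in Met+FK against FK (limma adjusted p = 1.82e-04 and 1.08e-04). ZNF846 counted 124, 152 and 122 in FK and 214, 219 and 239 in Met+FK, a log2 fold change of 0.76 ± 0.13 (limma adjusted p = 2.21e-04). ZNF528 counted 44.4, 75.2 and 44.8 in FK, where library 2 was the highest, and 100.3, 116 and 95.6 in Met+FK (0.95 ± 0.23, limma adjusted p = 0.00338). The Met+FK libraries were all above the FK libraries for these 3 genes.

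ZNF442 went from 146, 174 and 107 in FK to 255, 264 and 205 in Met+FK (0.78 ± 0.18, limma adjusted p = 0.00297). Without FK library 3 its change was 0.58, just under the fold threshold. ZNF844, at 16, 14.2 and 6.89 and 24.0, 27.2 and 24.4, had a fitted change of 1.05 ± 0.40 (limma adjusted p = 0.0495), and this call was lost without FK library 3 (adjusted p = 0.208) or without Met+FK library 1, 2 or 3 (0.0923, 0.121 and 0.0935). ZNF491, in contrast, had no higher level in Met than in DMSO. It counted 15, 13.8 and 13.3 in DMSO, 14.6, 8.50 and 18.3 in Met, 8.49, 7.08 and 11.5 in FK and 18.8, 19.8 and 16.6 in Met+FK, and was called higher in Met+FK against FK (0.97 ± 0.30, limma adjusted p = 0.0169). The call was lost without FK library 2 (limma adjusted p = 0.0645) or Met+FK library 2 (0.0553).

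The 7 genes called lower in Met+FK against FK were ZNF724, ZNF443, ZNF547, ZNF551, ZNF530, ZNF180 and ZNF837. ZNF724 (chr19:23221598-23250390, minus strand) counted 659, 684 and 652 in DMSO, 466, 558 and 413 in Met, 746, 990.0 and 781 in FK and 429, 405 and 401 in Met+FK. Both metformin treatments lay below both others without overlap. The log2 fold change was -1.01 ± 0.12 in Met+FK against FK (limma adjusted p = 9.74e-06) and -0.48 ± 0.12 in Met against DMSO (limma adjusted p = 0.00384), where it was under the fold threshold as deposited and called lower with the GC trend removed (-0.74). It is AT-rich, with a GC content of 40.0%. ZNF443 counted 196, 188 and 166 in FK and 109.8, 99.7 and 76.1 in Met+FK (-0.95 ± 0.17, limma adjusted p = 3.71e-04), with 167, 172 and 146 in DMSO and 187, 144 and 122 in Met.

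ZNF530 counted 486, 403 and 535 in FK and 336, 255 and 326 in Met+FK (-0.63 ± 0.13, limma adjusted p = 0.00113). It was the one gene called lower in both metformin comparisons as deposited, although without FK library 3 or Met+FK library 2 the change in the second was -0.54 and -0.51, under the fold threshold. ZNF551 went from 647, 569.7 and 618 to 397, 366 and 414 (-0.64 ± 0.10), and ZNF547 from 80.2, 92.9 and 131 to 67.9, 54.4 and 58.5 (-0.72 ± 0.17, and -0.52 without FK library 3). The libraries did not overlap in either gene. ZNF180 went from 248, 376 and 241, where library 2 was the highest, to 171, 222 and 164. Its change of -0.62 ± 0.17 was -0.51 with the GC trend removed and -0.41, -0.56 and -0.53 without FK library 2, Met+FK library 1 or Met+FK library 3, each under the fold threshold.

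**Figure D5:**
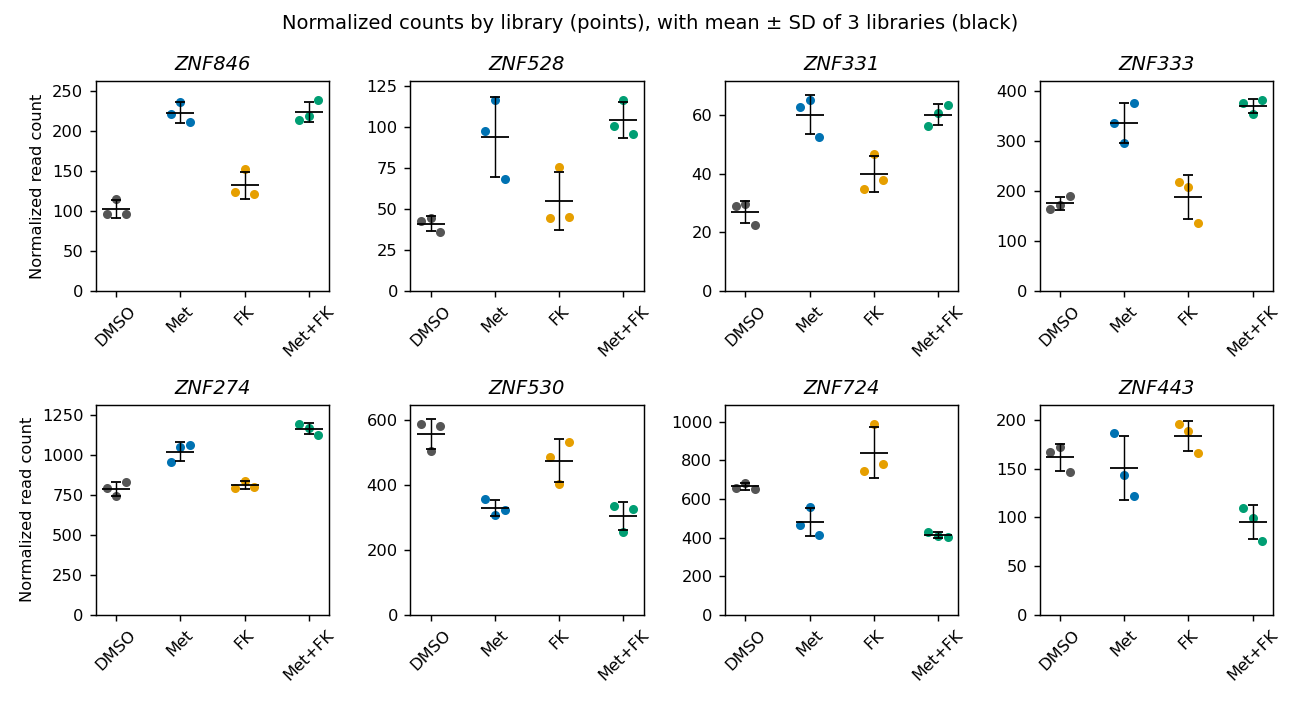
Normalized read counts of 8 chr19 ZNF genes in the 12 libraries (points), with the mean and SD of the 3 libraries of each treatment (black). ZNF846, ZNF528, ZNF331 and ZNF333 are higher in Met and Met+FK than in DMSO, ZNF530 is lower in both, and ZNF443 is lowest in Met+FK.

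FK866 alone was compared with the same DMSO libraries. Against them, 7 chr19 ZNF genes were higher and 0 lower by limma, beside 2.73% higher and 0.754% lower of all genes tested, so 3.76% of these genes were called higher. At an unadjusted p under 0.05, 95 of the 186 differed (51.1%), beside 42.2% of all genes. edgeR and DESeq2 called 9 and 10 higher, beside 3.42% and 2.41% of all genes. Both also called 0 lower, beside 0.585% and 0.462% of all genes. The 7 were ZNF302, ZNF224, ZNF566, ZNF441, ZNF837, ZNF93 and ZNF765, the last named to complete the count, and the FK and DMSO libraries did not overlap in the first 5. The median log2 fold change of the 186 was 0.30, against -0.02 over all genes, and 147 were positive. The count rested on single libraries. It was 0 without DMSO library 1 or FK library 2, 1 without DMSO library 3, 14 without FK library 3, and 24 without DMSO library 2 or FK library 1. With the replicate number as a block it was 13, beside 3.51% of all genes. The replicates of FK and DMSO correlated as pairs at 0.22 to 0.42 as deposited and at 0.14 to 0.17 with the GC trend removed. With only the 6 libraries compared in the fit the count was 0. How the count over all genes moved in that fit, or with a library left out, is not given here.

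The change with FK866 went with GC content as well. Across the 186 genes, Pearson's r between both was -0.61 (Spearman's rho -0.67). In the bin from 35% to 40% GC the median was 0.47 for 42 chr19 ZNF genes and 0.38 for all genes of that bin, and from 40% to 45% it was 0.35 for 88 and 0.20 for all. With metformin the same bins gave 0.49 against 0.28 and 0.44 against 0.17. After the trend was removed, 1 chr19 ZNF gene was higher with FK866 and 0 lower, beside 1.08% of all genes called higher, and the median was 0.10, against -0.02. At the adjusted p-value alone, 8 were higher and 1 lower, beside 5.42% and 5.97% of all genes.

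The one gene called with and without the trend was ZNF837 (chr19:58367617-58381030, minus strand), whose transcript is GC-rich at 70.8%. It counted 38.1, 35.5 and 45 in DMSO, 56.6, 75.2 and 64.3 in FK, 27.2, 32.1 and 45.7 in Met and 49.1, 38.7 and 40.0 in Met+FK. All FK libraries were above those of the other treatments. The log2 fold change was 0.71 ± 0.21 (limma adjusted p = 0.0344) and 0.93 with the GC trend removed (limma adjusted p = 0.0111). As deposited, the call was lost without DMSO library 1, 2 or 3 or FK library 2 or 3 (limma adjusted p from 0.0594 to 0.157), and with the trend removed it was lost without FK library 2 alone (adjusted p = 0.0861). It was also called lower in Met+FK against FK (-0.60 ± 0.21, limma adjusted p = 0.0311), a call lost without FK library 2 or 3 or Met+FK library 2 or 3.

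ZNF302 counted 309, 356 and 263 in DMSO and 403, 597 and 409.8 in FK, a change of 0.59 ± 0.15 (limma adjusted p = 0.0228), which was 0.33 with the GC trend removed. ZNF224, a KRAB repressor known for binding the promoter of the glycolytic gene ALDOA, counted 198, 234 and 212 in DMSO and 309, 405 and 293 in FK (0.63 ± 0.15, limma adjusted p = 0.0196, and 0.35 with the trend removed). FK library 2, the one with the steepest GC slope, was the highest in both. ZNF566 (277, 301 and 222 in DMSO, 378, 501 and 341 in FK) and ZNF441 (46.2, 59.1 and 49.1 in DMSO, 74.6, 135 and 66.6 in FK) also had their highest value in FK library 2. The calls of these 4 genes were lost without DMSO library 1 (limma adjusted p from 0.0888 to 0.151), DMSO library 3 (from 0.0564 to 0.107) or FK library 2 (from 0.0821 to 0.216).

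Both drugs together were compared with DMSO, whose libraries also serve in the single-drug comparisons. In Met+FK against DMSO, 47 chr19 ZNF genes were higher and 5 lower, beside 13.7% and 11.3% of all genes tested, and the shares were 25.3% and 2.69%. The median log2 fold change was 0.35, and 151 values were positive. With libraries scaled to the same total, 57 were higher and 4 lower, beside 2630 and 1396 of all genes. Removal of the GC trend left 31 higher and 4 lower, beside 11.8% in either direction, and the median was 0.21. The largest rises among genes with non-overlapping libraries were those of ZNF844 (2.20 ± 0.40), ZNF528 (1.33 ± 0.23), ZNF181 (1.27 ± 0.24), ZNF382 (1.24 ± 0.25), ZNF442 (1.23 ± 0.18) and ZNF331 (1.14 ± 0.18). ZNF382, a KRAB repressor often silenced by promoter methylation in tumours, counted 16.2, 14.8 and 20.5 in DMSO, 34.5, 47.2 and 31.5 in Met, 26.4, 36.3 and 23.0 in FK and 40.8, 52.7 and 33.2 in Met+FK. The 5 that fell were ZNF530 (-0.88 ± 0.13), ZNF443 (-0.77 ± 0.17), ZNF724 (-0.69 ± 0.12), ZNF547 (-0.67 ± 0.17) and ZNF792 (-0.62 ± 0.18), and the call of ZNF792 was lost without DMSO library 1 (-0.51) or Met+FK library 3 (-0.55).

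FK866 added to metformin-treated cells changed none of these genes past the thresholds. In Met+FK against Met, limma called 0 higher and 0 lower, beside 0.052% and 0.0065% of all genes tested, and 14 had an unadjusted p under 0.05 (7.53%, all genes 6.84%). edgeR called 0, and DESeq2 called 0 higher and 1 lower, the latter beside 0.0976% and 0.026% of all genes. The median log2 fold change was -0.01, and 92 values were positive. The smallest p-values were those of ZNF443, ZNF581 and ZNF414. ZNF443 counted 187, 144 and 122 in Met and 109.8, 99.7 and 76.1 in Met+FK (-0.65 ± 0.17, limma adjusted p = 0.266), and it was called lower with the replicate number as a block (adjusted p = 0.0171). ZNF581 counted 568, 514 and 643 in Met and 699, 721 and 801 in Met+FK (0.37 ± 0.11, limma adjusted p = 0.380). ZNF414 counted 359.5, 324 and 402 and 453, 410.2 and 465 (0.29 ± 0.10, limma adjusted p = 0.515).

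The interaction asks whether the effect of FK866 differed with and without metformin. It was negative in 143 of the 186 genes, with a median of -0.29 log2 units. No gene passed in limma, with 0 at an adjusted p under 0.05, beside 0.0585% of all genes tested, and the smallest adjusted p was 0.102. At an unadjusted p under 0.05 there were 58 (31.2%), near the 30.5% of all genes. DESeq2 gave 5 and edgeR 0, beside 5.67% and 0.065% of all genes tested. With the replicate number as a block there were 63, of which 52 were negative, beside 32.0% of all genes (15.5% positive and 16.5% negative), and with the GC trend also removed there were 9. Without FK library 1 there were 14. For the 9 and the 14 the share of all genes is not given here. With the trend removed the median was -0.05, and across the 186 genes Pearson's r of the interaction with GC content fell from 0.72 to 0.19. The smallest p-values belonged to ZNF581 (0.67 ± 0.15), ZNF224 (-0.85 ± 0.21) and ZNF302 (-0.79 ± 0.21). ZNF224 counted 375, 391 and 318 in Met and 361, 309 and 262 in Met+FK, beside the DMSO and FK values given above, and its limma adjusted p was 0.106.

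Several of these genes are known for particular functions and were chosen whatever their values did. For ZNF93, ZNF420 and ZNF146 the values of a single comparison are given. ZNF91, which silences SVA retrotransposons, counted 245, 296 and 182 in DMSO, 406, 397 and 349 in Met, 306, 441 and 290.4 in FK and 458, 331 and 321 in Met+FK. It rose with metformin by 0.70 ± 0.19 (limma adjusted p = 0.00671), and by 0.40, under the fold threshold, with the GC trend removed. Without DMSO library 3 the rise was 0.51. ZNF93, which silences LINE elements, counted 32.3, 55.2 and 27.6 in DMSO and 57.6, 77 and 55.1 in FK, so that the highest DMSO library just overlapped the lowest FK library. It was called higher with FK866 as deposited (0.75 ± 0.24, limma adjusted p = 0.0428) and not with the GC trend removed (0.49, limma adjusted p = 0.135), and the call was lost without DMSO library 1 or 3 or FK library 2 or 3. ZNF274, which brings SETDB1 to the ends of ZNF genes themselves, counted 792, 746 and 831 in DMSO, 957, 1049 and 1062 in Met, 795, 839 and 802 in FK and 1197, 1169.6 and 1129 in Met+FK. Every library with metformin was above every library without it. The changes, 0.37 ± 0.08 in Met against DMSO and 0.52 ± 0.08 in Met+FK against FK (limma adjusted p = 0.00120 and 9.80e-05), were under a fold of 1.5, and were 0.45 and 0.47 with the GC trend removed.

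ZNF473, which takes part in processing the ends of histone mRNAs, counted 840.1, 706 and 720.2 in DMSO, 968, 931 and 974 in Met, 749, 651 and 683 in FK and 1139, 1192 and 1071 in Met+FK. It was called higher in Met+FK against FK (0.71 ± 0.09, limma adjusted p = 1.96e-05), and its change in Met against DMSO was 0.35 ± 0.09. ZNF420, known as a repressor of p53 activity, counted 163, 209 and 99.2 in DMSO, where library 3 was lowest, and 279, 306 and 198 in Met (0.77 ± 0.25, limma adjusted p = 0.0192, and 0.49 with the GC trend removed). Met library 3 lay within the DMSO range, and the call was lost without DMSO library 3 or Met library 1 or 2. ZNF146, a short protein made almost only of zinc fingers, counted 1604, 2162 and 1319.7 in DMSO and 2667, 2923 and 1995 in Met, and these libraries overlapped (0.59 ± 0.21, limma adjusted p = 0.0285, and 0.32 with the trend removed). Its call was lost without DMSO library 1 or 3 or Met library 1 or 2. In Met+FK against DMSO, ZNF91, ZNF420 and ZNF473 were called higher too, and each of these calls was lost at least without DMSO library 3. ZNF121, the most abundant of the chr19 ZNF genes, counted 2880.5, 3169.6 and 2522 in DMSO and 4723, 4502 and 3276 in Met (0.53 ± 0.15), and ZNF317 counted 3494, 3061 and 3237 and 2879, 2574 and 2789 (-0.25 ± 0.08), both under the fold threshold.

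Genes at the ends of the GC range were compared as well. The 3 most AT-rich genes were ZNF254, ZNF100 and ZNF493, at 33.2% to 34.2% GC. ZNF254 changed by 0.62 ± 0.16 and ZNF493 by 0.64 ± 0.16 with metformin, both called higher as deposited, and with the GC trend removed the changes were 0.29 and 0.32, which were not called. The call of ZNF254 was also lost without DMSO library 2 or Met library 2 and that of ZNF493 without DMSO library 3 or Met library 3, each by the fold threshold. ZNF100 had -0.03 ± 0.27. The 3 most GC-rich were ZNF865, ZNF628 and ZNF837, at 70.8% to 70.9%, with -0.19 ± 0.13, -0.18 ± 0.14 and -0.20 ± 0.21 with metformin.

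KRAB proteins act through shared corepressors. A list of 26 genes of KRAB corepression and H3K9 methylation (TRIM28, SETDB1, HP1 proteins, deacetylases, H3K9 methyltransferases and partners) was tested in full. It is wider than the KRAB corepressors and includes general chromatin genes such as UHRF1, DNMT1 and SUV39H1. With metformin 0 were called higher and 4 lower (15.4%, all genes 10.2%), with a median of -0.24, and at the adjusted p-value alone 13 of 26 differed, beside 50.9% of all genes. TRIM28, the cofactor that KRAB boxes bind, itself a gene of chromosome 19, went from 19608 ± 1207 (SD, n = 3) in DMSO to 10597 ± 1299 in Met, a log2 fold change of -0.89 ± 0.10 (limma adjusted p = 8.45e-06). UHRF1, which guides maintenance DNA methylation, fell by 1.46, the maintenance methyltransferase DNMT1 fell by 0.83 and the H3K9 methyltransferase SUV39H1 fell by 0.97 on the log2 scale. SETDB1 had 0.02 ± 0.09 (limma adjusted p = 0.840). In Met+FK against FK, where 9.29% of all genes were lower, 0 were higher and 6 lower (UHRF1, SUV39H2, SUV39H1, CBX3, DNMT1 and CBX1), with a median of -0.32. TRIM28 there changed by -0.58 ± 0.10, just under the fold threshold, and by -0.68, past it, with the GC trend removed (limma adjusted p = 6.08e-09). SETDB1 there rose by 0.38 ± 0.09 (limma adjusted p = 0.00285), under the fold threshold. With FK866 alone none of the 26 was called, with 7 at an adjusted p under 0.05 (26.9%, all genes 21.1%), and the median was 0.15. TRIM28 and UHRF1 have GC-rich transcripts (64.2% and 55.7%), and with the GC trend removed their changes with metformin were -0.73 and -1.31. Whether the levels of the 26 listed genes and of the chr19 ZNF genes are linked was not tested.

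The 225 ZNF genes tested on other chromosomes gave a comparison by family, and the 877 other genes of chromosome 19 one by location. With metformin, the ZNF genes elsewhere had 46 higher, 8 lower and a median of 0.24, and the 86 of them with the KRAB pattern had 20 higher, 0 lower and a median of 0.33. The other genes of chromosome 19, with a median GC content of 60.4%, had 52 higher, 160 lower and a median of -0.26. After removal of the GC trend the 3 medians were 0.14, 0.17 and -0.14, beside 0.17 for the chr19 ZNF genes. In Met+FK against FK with the trend removed they were 0.11, 0.13 and -0.08, beside 0.12. KRAB genes on other chromosomes thus had medians close to those of the chr19 ZNF genes in both, and the rest of chromosome 19 had medians of the other sign. These differences are given as a description, with no test between sets.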

How the data were processed

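RNA-seq libraries of KP4 cells, 3 in each of 4 treatments, were taken from the deposited table. Its values are a signal that the authors made by trimming reads with cutadapt, aligning them to hg38 with STAR, counting read pairs per gene with featureCounts and dividing by DESeq2 size factors. The annotation and strand setting are not given in the sources used here. Each library's values were whole multiples of 1 step, so read pairs were recovered, with 100% of values within 0.01 of a whole number. Recovered totals ran from 30667735 to 41052203 read pairs, and libraries of a treatment differed beyond counting error (chi-square over its degrees of freedom from 5.75 to 51.9).

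Values were analysed as log2(value + 1) for 15376 genes with a mean of at least 10, with limma (3.58.1, R 4.3.3) in 1 fit of all 12 libraries with a mean-variance trend, Benjamini-Hochberg adjustment over all genes, and calls at an adjusted p under 0.05 and a fold change over 1.5. Fold changes on this scale understate those of low genes. The GC trend of each library was removed with a loess curve (span 0.3) on transcript GC content for 15324 genes. edgeR (4.0.16, quasi-likelihood) on the recovered read pairs called 50 chr19 ZNF genes higher and 1 lower in Met vs DMSO, beside 13.9% and 8.99% of all genes. In FK vs DMSO it called 9 and 0, beside 3.42% and 0.585%. DESeq2 (1.42.0) was a further alternative. On simulated FK vs DMSO data for 15376 genes, 83.5% of 2-fold and 33.0% of 1.5-fold changes were recovered. Recovery required the same thresholds as a call, so the share of 1.5-fold changes was limited in advance by the fold threshold. With a simulated GC trend left in, 625 unchanged genes were called, and 1 with it removed. The simulated trend was 1 straight slope, the same in every FK library and absent from the others, unlike the slopes of these libraries. It checks the procedure and cannot show whether removal is right for these data.

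KRAB, SCAN and finger patterns, positions, lengths and GC content came from the GENCODE annotation of GRCh38 and its translated transcripts. Replicate numbers were checked as pairs by the correlation of deviations from treatment means over genes. In FK vs DMSO this was 0.22 to 0.42 and in Met+FK vs Met 0.17 to 0.23, above 0.1 for every pair, and in the other comparisons not. With the GC trend removed it was 0.14 to 0.17 and 0.07 to 0.16, so only FK vs DMSO stayed above 0.1 for every pair. Genes were named for the highest means, the largest changes among called genes with non-overlapping libraries, the smallest p-values where none was called, the ends of the GC range, the limit of 10, or a known role, and any other is said to be named after its values were seen. The genes, lists and tests were chosen with earlier results of these data known. The removal of the GC trend with each DMSO or FK library left out was added after seeing the data.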

Additional observations from a re-analysis of the deposited data

Results flagged for a closer look

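ZNF568, a KRAB gene known for repressing placental Igf2 in the mouse, lay just under the mean of 10 and entered no test, yet its level was above that of the DMSO libraries wherever metformin was present. Its normalized counts were 2.31, 0.985 and 2.05 in DMSO, 3.78, 4.42 and 2.30 in FK, 10.5, 9.45 and 9.13 in Met (mean 9.68) and 6.27, 7.41 and 9.76 in Met+FK (mean 7.81). All 6 libraries with metformin were above all 6 without it, at counts of at most 10.5, and the difference was not tested.

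In 6 chr19 ZNF genes, all 3 FK libraries lay on one side of the DMSO libraries while all 3 Met+FK libraries lay on the other side of the Met libraries. ZNF414, ZNF581, ZNF787 and ZNF416 were lower with FK866 alone and higher with FK866 added to metformin, and ZNF302 and ZNF551 the reverse. ZNF581 counted 559.7, 558 and 529.9 in DMSO, 503, 414 and 421 in FK, 568, 514 and 643 in Met and 699, 721 and 801 in Met+FK. The interaction had limma adjusted p-values of 0.102 to 0.116 in the 6 genes, and of 0.00462 to 0.0384 with the replicate number as a block. That block covers comparisons in which the replicates did not all correlate as pairs above 0.1. The interaction log2 values were 0.42 for ZNF414, 0.67 for ZNF581, 0.47 for ZNF787, 0.46 for ZNF416, -0.79 for ZNF302 and -0.38 for ZNF551. After removal of the GC trend they were 0.16, 0.41, 0.18, 0.42, -0.49 and -0.25, with limma adjusted p-values of 0.0782 to 0.459. These genes were picked out by their values, and how many of all genes tested show the same pattern was not counted.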

How the results depend on the processing

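No gene named as called changed direction under any alternative run, and the median of the 186 genes changed sign only in Met+FK vs Met, where it lay near 0 throughout (-0.08 to 0.03 when 1 library was left out). In Met vs DMSO, 19 higher, 2 lower and a median of 0.17 remained with the trend removed, with or without the replicate block, 16, 2 and 0.18 with transcript length removed too, and 20, 2 and 0.18 with the GC content of the longest transcript. FK vs DMSO gave 1 higher, 0 lower and a median of 0.10 with the trend removed, with or without the block, 1, 1 and 0.0706 with length removed too, and 2, 0 and 0.11 with the longest transcript. Leaving out each DMSO or FK library after the trend was removed gave 0 to 3 higher, 0 to 1 lower (1 without DMSO library 2 and without FK library 3, and 2 higher without DMSO library 3) and medians of 0.123, 0.0911, 0.0605, 0.0978, 0.0628 and 0.106. Met+FK vs DMSO gave 31 higher and a median of 0.21 (0.215), with or without the block, 29 and 0.21 with length removed too, and 31 and 0.23 with the longest transcript.

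At the adjusted p-value alone, 90 were higher and 13 lower in Met vs DMSO (48.4% and 6.99%, all genes 24.9% and 25.9%). FK vs DMSO gave 31 and 2 (16.7% and 1.08%, all genes 11.3% and 9.84%). Met+FK vs DMSO gave 86 and 13 (46.2% and 6.99%, all genes 26.1% and 26.1%). Met+FK vs FK gave 37 and 14 (19.9% and 7.53%, all genes 20.5% and 21.7%), so the share higher there was near that of all genes. Scaling to the same total gave medians of 0.47 in Met vs DMSO and 0.43 in Met+FK vs DMSO and 3 lower in Met+FK vs FK. In FK vs DMSO, 4 were higher with a pseudocount of 10, 3 with all genes above 0 tested, and 0 with only the 6 libraries compared. Leaving out 1 library gave 32 to 59 higher and 1 to 3 lower in Met vs DMSO, 0 to 24 higher in FK vs DMSO, with a median of 0.20 to 0.36, 39 to 52 higher and 4 to 6 lower in Met+FK vs DMSO, 10 to 20 higher and 4 to 8 lower in Met+FK vs FK, and 0 to 14 interactions. Counts over all genes with a library left out are not given beside these. DESeq2 called 1 lower in Met+FK vs Met and gave 5 interactions, beside 0.026% and 5.67% of all genes. The replicate block was supported as pairing in FK vs DMSO and, only as deposited, in Met+FK vs Met. It gave 13 higher in FK vs DMSO, beside 3.51% of all genes. In Met+FK vs Met it gave 1 lower, beside 0.0455% of all genes (1 also with the trend removed). There were 63 interactions with it, beside 32.0% of all genes, and 9 with the trend removed. The block changed no other count by over 1.5 times. Where a count moved, the cause was not tested beyond the setting itself. Of the other values of named genes under these settings, 651 kept their direction and side of the thresholds, 99 lost a call and 3 gained one. In simulated data, 33.0% of 1.5-fold changes were recovered, where recovery itself required a fold change over 1.5. The threshold limited this share in advance, so it does not measure how well such differences are detected. A gene that was not called may still differ.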
